A study of Mus musculus with 8 samples.

Results

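Phospholipases and lipid phosphatases cut the phospholipids of cell membranes, and 10 of their genes are described here by the histone mark H3K4me3 in mouse lung tumor cells. The genes were *Pla2g4a*, *Pla2g6*, *Pla2g7* and *Pla2g15* of the phospholipases A2, *Pld1*, *Pld2*, *Pld3* and *Pld4* of the phospholipase D family, and the lipid phosphatases *Plpp1* and *Plpp3*. The members were all listed peaks that the deposited table assigns to these genes, which were 16 of 35486 peaks and 10 of 20871 genes. Of the 10 genes, 6 had 2 peaks and 4 had 1 peak.

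The mark was measured by CUT&Tag, in which an antibody to the mark guides the release of the DNA around it, in 2 libraries of KL tumors (replicates 1 and 2) and 2 libraries of KLG4m/m tumors (replicates 3 and 4). KL is the study's name for a lung tumor model that Cre starts and that carries Lkb1fl/fl, which Cre removes, and KLG4m/m mice carried Gpx4m/m in addition, so that tamoxifen also removed exons 5 to 7 of *Gpx4* in cells that had seen Cre. *Gpx4* encodes the enzyme that reduces phospholipid hydroperoxides and protects cells from ferroptosis. Both groups received Ad-Cre through the nose at 8 to 10 weeks of age and tamoxifen from 5 weeks later for 2 weeks, and tumors were taken 10 weeks after Ad-Cre. Ad-Cre is not limited to 1 cell type of the lung, and the cells were sorted as CD45-CD31-EpCAM+, which keeps epithelial cells other than tumor cells too. A figure legend gives a number of mice per group that matches the libraries, whereas the total in the labels' protocol does not, so the p-values below are taken to measure only the spread between these libraries.

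Phospholipases A2 free a fatty acid, often arachidonic acid, and leave a lysophospholipid. Phospholipase D turns phosphatidylcholine into phosphatidic acid, and lipid phosphatases turn phosphatidic acid into diacylglycerol, which can be built into triacylglycerol (TAG) or new phospholipids. H3K4me3 lies mainly at the start sites of genes that are transcribed or poised, most strongly where the DNA is rich in CpG dinucleotides. The study's text names *Plpp1* among the TAG synthesis genes raised in KLG4m/m cells, and its pathway scheme holds phospholipases A2 and D too. Its heatmap shows more such genes than the text names. The direction of *Plpp1*, *Pla2g7*, *Pld3* and *Pla2g4a* here is therefore not taken as independent evidence.

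Promoter sequences are shown for start sites with a strong and a weak peak, since the 2 start sites of *Pld1* differed in H3K4me3 within 1 gene, and for *Pla2g4a*, *Pla2g7* and *Pld4*, whose values are described below. They are RefSeq sequences of GRCm38.p6, the 250 bases upstream of a start site, 5′ to 3′ on the gene's strand, with CpG dinucleotides in capitals. RefSeq entries were matched for 9 of the 10 genes by symbol, *Plpp1* being the exception. The first and second *Pld1* sequences lay at chr3:27938430-27938679 and chr3:27983921-27984170 (plus strand), the *Pla2g4a* sequence at chr1:149961291-149961540 (minus strand), the *Pla2g7* sequence at chr17:43568201-43568450 (plus strand) and the *Pld4* sequence at chr12:112760405-112760654 (plus strand).
Pld1, upstream start site: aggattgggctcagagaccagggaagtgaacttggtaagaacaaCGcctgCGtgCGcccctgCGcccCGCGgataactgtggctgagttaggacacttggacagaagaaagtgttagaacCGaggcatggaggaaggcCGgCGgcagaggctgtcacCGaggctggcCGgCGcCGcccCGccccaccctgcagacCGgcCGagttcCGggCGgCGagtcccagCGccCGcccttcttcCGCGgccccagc
Pld1, downstream start site: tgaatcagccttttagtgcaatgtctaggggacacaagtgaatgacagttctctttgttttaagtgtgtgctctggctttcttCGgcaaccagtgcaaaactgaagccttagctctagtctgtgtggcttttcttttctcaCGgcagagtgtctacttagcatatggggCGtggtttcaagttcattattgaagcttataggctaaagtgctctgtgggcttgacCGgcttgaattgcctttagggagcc
Pla2g4a, upstream start site: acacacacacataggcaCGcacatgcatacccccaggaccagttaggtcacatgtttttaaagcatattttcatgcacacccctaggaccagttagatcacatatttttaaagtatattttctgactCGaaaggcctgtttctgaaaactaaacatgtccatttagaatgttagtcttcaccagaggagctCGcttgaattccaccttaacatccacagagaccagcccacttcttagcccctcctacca
Pla2g7: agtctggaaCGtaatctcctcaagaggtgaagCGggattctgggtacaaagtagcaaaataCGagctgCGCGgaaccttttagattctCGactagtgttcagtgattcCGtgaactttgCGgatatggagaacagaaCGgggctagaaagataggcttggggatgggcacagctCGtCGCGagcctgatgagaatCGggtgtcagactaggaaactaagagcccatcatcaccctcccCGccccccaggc
Pld4: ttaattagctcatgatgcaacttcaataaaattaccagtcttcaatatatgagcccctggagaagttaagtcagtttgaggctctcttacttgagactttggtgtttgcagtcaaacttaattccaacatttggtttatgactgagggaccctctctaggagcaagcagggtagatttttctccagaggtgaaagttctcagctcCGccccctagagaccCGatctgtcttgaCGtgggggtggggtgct

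The upstream *Pld1* promoter held 23 CpG dinucleotides and the downstream one 4. The *Pla2g7* promoter held 14, and those of *Pla2g4a* and *Pld4* held 3 each. The median over the 32851 RefSeq promoter entries was 6. Among the members not printed, the count was 12 at *Pla2g6*, 16 at *Pla2g15*, 17 and 23 at the 2 entries of *Pld2*, 20 at *Pld3* and 6 at *Plpp3*, and it was 1 at the downstream entry of *Pla2g4a*. The letters GGGCGG, searched on both strands, stood in 7 of the 12 member entries and in 32.7% of all entries, and CCAAT in 4 of 12 and 33.8%. TATAAA stood in 1 of 12 member entries and 12.4% of all, and TGANTCA in 1 of 12 and 6.75%. These matches describe the letters in the window and are not evidence of a factor bound there.

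The libraries held 3244495 to 3463731 reads in the listed peaks, and 2 libraries of 1 group differed less (chi-square per degree of freedom 1.13 and 1.23) than libraries of different groups (2.37 to 2.80). The *Gpx4* promoter peak lies outside the deleted exons and so does not check the deletion. Its signal was 69.6 and 68.0 CPM in KL and 88.2 and 93.2 CPM in KLG4m/m (edgeR adjusted p = 0.00854). CPM are reads per 1000000 reads in the listed peaks, scaled by the TMM factors of edgeR, and because every member peak is 400 bp long, as are all listed peaks but 1, CPM can be compared between peaks. "Adjusted p" is that of edgeR's quasi-likelihood test with Benjamini-Hochberg adjustment over all peaks, or over all genes for reads summed over a gene's peaks, and fold changes are KLG4m/m over KL. A peak or gene rose or fell where this p was under 0.05.

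All 8 epithelial markers had listed peaks, with a median log2 fold change of 0.03 and 4 of the 8 above 0. Their summed signal was 370 and 368 CPM in KL and 329 and 333 CPM in KLG4m/m. Of these 8 genes 2 fell, and *Epcam*, used in the sort, fell most, by 0.82 on the log2 scale. *Sftpc*, which defines alveolar type 2 cells, had no listed peak. Alveolar type 2 markers fell in 4 of 7 genes with a peak, and their summed signal was 267 and 276 CPM in KL and 203 and 214 CPM in KLG4m/m. B cell markers rose in 5 of 7 genes, with a summed signal of 70.7 and 70.0 CPM in KL and 108 and 112 CPM in KLG4m/m. Of all genes, 5.38% were higher and 9.63% lower. By DESeq2, 1 of the 7 alveolar type 2 genes passed as lower and 0 of the 7 B cell genes as higher, with 5 B cell genes higher at an unadjusted p under 0.05. Of all 20871 genes, DESeq2 passed 122 as higher and 337 as lower, and 891 and 1610 at that unadjusted p. By edgeR at that unadjusted p, 6 B cell genes were higher and 1, *Cd22*, was lower (log2 fold change -0.81), beside 12.4% and 16.4% of all genes. Reads were pooled over many cells, so fewer cells of a type and less signal per cell cannot be told apart.

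H3K4me3 rose at 3 of the 16 member peaks and fell at 1. The peaks that rose were the *Plpp1* promoter peak, the peak in the first intron of *Pla2g4a* and 1 of the 2 *Pld3* peaks, and the peak that fell lay in the first intron of *Plpp1*. Over the whole table, 8.62% of peaks passed the test, 3.10% as higher and 5.52% as lower. By position, 1 of the 10 member peaks within 1 kb of a start site passed, beside 11.3% of all such peaks, and 3 of the 6 farther away, beside 6.11%. The difference between these positions was not tested. The median log2 fold change was 0.08 over the 16 member peaks and 0.01 over all peaks. The libraries of the groups did not overlap at 11 of the 16 peaks, beside 54.2% of all peaks. At an unadjusted p under 0.05, 5 member peaks were higher and 1 was lower, beside 11.2% and 13.5% of all peaks.

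**Figure D1:**
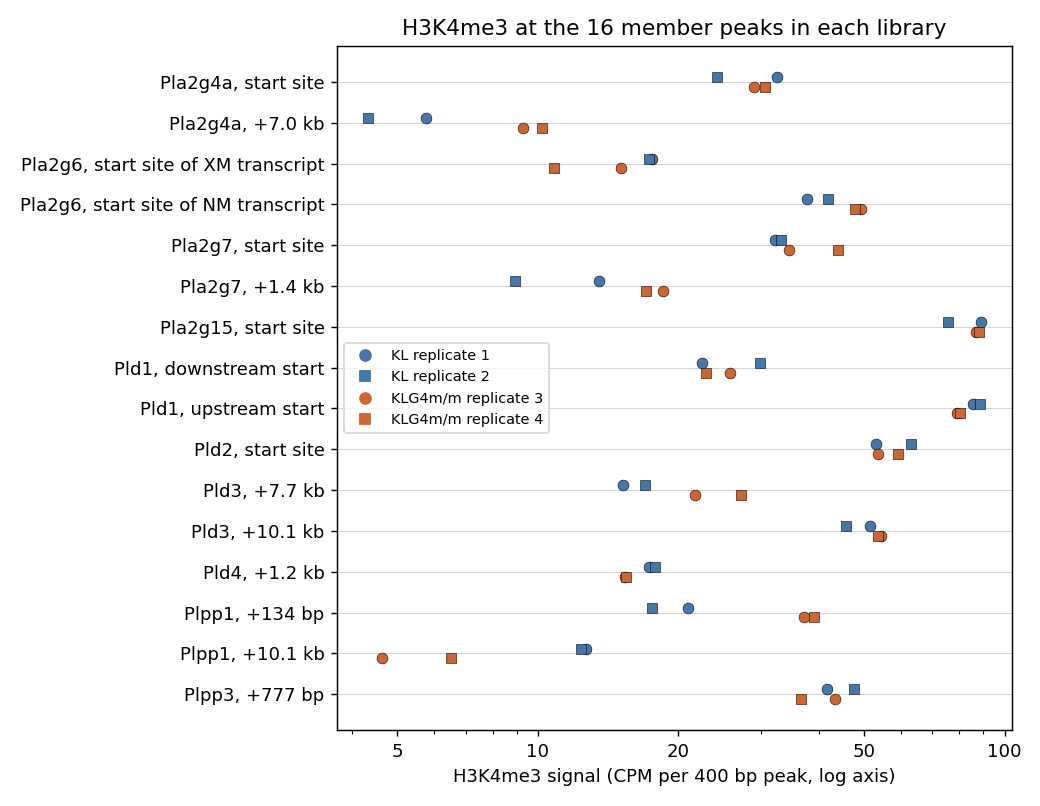
H3K4me3 signal (CPM per 400 bp peak, log axis) of the 16 member peaks in the 4 libraries, with 1 point per library, KL in blue and KLG4m/m in orange. Peaks ranged from about 4.32 to 89.2 CPM, and the groups lie farthest apart at the *Plpp1* peaks.

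With reads summed over each gene, *Plpp1* and *Pla2g7* rose and none of the 10 genes fell, where 5.38% of all genes were higher and 9.63% lower. At an unadjusted p under 0.05, 3 member genes were higher and 0 lower by edgeR, beside 12.4% and 16.4% of all genes. DESeq2 gave 2 and 0, beside 891 and 1610 of the 20871 genes, and called no member gene after adjustment. The third gene by edgeR was *Pld3* (log2 fold change 0.27, edgeR adjusted p = 0.0546). The *Pld3* sum leaves out the peak over its start site, which is assigned to a neighbouring gene. The median log2 fold change was 0.09 over the 10 genes and 0.00 over all genes. The groups did not overlap at 6 of the 10 genes, beside 56.7% of all genes. Gene calls depended on the scaling where each library was centred on its median signal. With TMM, 1122 genes of the table were higher and 2010 lower, with DESeq2 size factors 1143 and 1941, and with total counts 999 and 1999. With median centring, 2787 were higher and 1396 lower, and the median log2 fold change over all genes was 0.09. *Pld3* then passed too (log2 fold change 0.36, edgeR adjusted p = 0.00653).

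Among the phospholipases A2, *Pla2g4a* encodes the cytosolic, calcium-dependent enzyme that frees arachidonic acid. Its peak in intron 1 of 17 (chr1:149829647-149830047, 6994 bp into the gene, positions as the deposited table gives them) had 5.75 and 4.32 CPM in KL and 9.28 and 10.2 CPM in KLG4m/m. Both KLG4m/m libraries lay above both KL libraries. The peak rose 1.93-fold (log2 fold change 0.95 ± 0.29 SE, edgeR adjusted p = 0.0434), on 15 to 33 reads per library. Leaving out any 1 of the 4 libraries ended the call, with log2 fold changes from 0.76 to 1.17 and an edgeR adjusted p of 0.0539 without KL replicate 1 and 0.253 without KL replicate 2. In such fits the group left with 1 library is taken to vary like the other group. Without KLG4m/m replicate 3 or 4 no peak or gene of the whole table passed by edgeR, so the loss of a call there is not particular to any peak or gene.

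The peak at the start site of *Pla2g4a* was higher than the intronic one in every library and did not pass the test. It had 32.5 and 24.2 CPM in KL and 29.0 and 30.7 CPM in KLG4m/m, so the groups overlapped (log2 fold change 0.07, 95% interval -0.26 to 0.40). Summed over both peaks, *Pla2g4a* did not pass the test (log2 fold change 0.24, edgeR adjusted p = 0.262). No peak of another gene was listed within 100 kb of the intronic peak.

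*Pla2g7* encodes the secreted enzyme that cuts platelet-activating factor and oxidised phospholipids and is known from macrophages. Summed over its 2 peaks, it had 45.9 and 42.0 CPM in KL and 53.2 and 60.8 CPM in KLG4m/m, with both KLG4m/m libraries higher. It rose 1.29-fold (log2 fold change 0.37 ± 0.12 SE, edgeR adjusted p = 0.0249). Neither peak passed on its own. The peak at the start site had 32.2 and 33.1 CPM in KL and 34.5 and 44.0 CPM in KLG4m/m (edgeR adjusted p = 0.270). The peak 1444 bp downstream (chr17:43880995-43881395) had 13.5 and 8.93 CPM in KL and 18.6 and 17.03 CPM in KLG4m/m (log2 fold change 0.66, edgeR adjusted p = 0.0566). With peaks within 1 kb of a start site alone, *Pla2g7* did not pass (log2 fold change 0.27, edgeR adjusted p = 0.209), and the summed call was lost without any 1 library, with log2 fold changes from 0.28 to 0.47. The downstream peak passed without KL replicate 1 (log2 fold change 0.99, edgeR adjusted p = 0.0157) or when only peaks of at least 10 CPM were tested (log2 fold change 0.64, edgeR adjusted p = 0.0453).

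Macrophage markers, given here beside *Pla2g7*, mostly had log2 fold changes above 0. Of 16 listed, 11 had a peak, and *Marco*, *Cd163* and the complement genes *C1qa*, *C1qb* and *C1qc* had none. *Spi1*, a transcription factor of myeloid and B cells, and *Adgre1* rose, with log2 fold changes of 0.38 and 0.46, and *Chil3* fell by 0.82. Among all genes, 5.38% were higher and 9.63% lower. The log2 fold change was above 0 at 8 of the 11 genes. At an unadjusted p under 0.05 by edgeR, 4 were higher and 1 lower, beside 12.4% and 16.4% of all genes. By DESeq2, *Spi1* alone passed (DESeq2 adjusted p = 0.0348), where 122 of the 20871 genes passed as higher and 337 as lower. The summed signal of the list was 386 and 385 CPM in KL and 441 and 453 CPM in KLG4m/m, and its part in the *Pla2g7* difference was not tested.

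*Pla2g15* encodes the lysosomal phospholipase A2, which is abundant in alveolar macrophages. Its peak (chr8:106876877-106877277, at the start site) was the highest by mean of the 16 member peaks, with 89.2 and 75.8 CPM in KL and 87.0 and 88.2 CPM in KLG4m/m. Both KLG4m/m libraries lay between the KL libraries, and no difference was detectable (log2 fold change 0.09, 95% interval -0.11 to 0.28).

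*Pla2g6* encodes the calcium-independent phospholipase A2 and had a peak at each of 2 start sites, which pointed in opposite directions. The peak at the start of transcript NM_001199023.2 (chr15:79212080-79212480) had 37.7 and 41.8 CPM in KL and 49.3 and 47.7 CPM in KLG4m/m. The peak at the start of XM_036159508.1 (chr15:79207546-79207946) had 17.6 and 17.3 CPM in KL and 15.1 and 10.8 CPM in KLG4m/m. The groups did not overlap at either peak, but neither passed the test (edgeR adjusted p = 0.149 and 0.213), and the log2 fold change of the summed gene was 0.10 (edgeR adjusted p = 0.579).

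In the phospholipase D family, *Pld1* and *Pld2* encode the enzymes that make phosphatidic acid from phosphatidylcholine. The peak 208 bp downstream of the upstream *Pld1* start site (chr3:27993018-27993418), the site with the CpG-rich promoter shown above, had 85.7 and 88.7 CPM in KL and 79.2 and 80.2 CPM in KLG4m/m. The groups did not overlap, but the difference did not pass (log2 fold change -0.13, 95% interval -0.32 to 0.06). The peak at the downstream start site (chr3:28038027-28038427) had 22.4 and 30.0 CPM in KL and 25.8 and 22.9 CPM in KLG4m/m, with overlap. Both start sites lie 45491 bp apart in the deposited table and in the RefSeq entries. The *Pld2* peak had 52.9 and 63.1 CPM in KL and 53.7 and 59.1 CPM in KLG4m/m, with overlap (log2 fold change -0.04, 95% interval -0.28 to 0.19).

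*Pld3* and *Pld4* encode lysosomal members of the family, which degrade single-stranded nucleic acids. The *Pld3* peaks lay 7703 and 10075 bp downstream of the start site of NM_001317355.2 and were annotated as 5′ untranslated exon. The nearer one (chr7:27244361-27244761) had 15.3 and 16.99 CPM in KL and 21.8 and 27.3 CPM in KLG4m/m, without overlap. It rose 1.51-fold (log2 fold change 0.60 ± 0.18 SE, edgeR adjusted p = 0.0407). The call was lost without any 1 library, with log2 fold changes from 0.43 to 0.75. The farther and higher peak (chr7:27241989-27242389) had 51.5 and 45.8 CPM in KL and 54.2 and 53.6 CPM in KLG4m/m (log2 fold change 0.15, edgeR adjusted p = 0.458). It stood at percentile 97.7 of all peaks more than 1 kb from a start site. Next to the *Pld3* peaks, *Hipk4* (18.5 kb away) and *2310022A10Rik* (7.995 kb away) did not pass the test, with log2 fold changes of -0.71 and -0.08. The *2310022A10Rik* peak covers the *Pld3* start site as well, but is assigned to *2310022A10Rik* alone. It had 80.0 and 83.5 CPM in KL and 78.0 and 76.8 CPM in KLG4m/m, and it is not part of the *Pld3* values given here.

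*Pld4* is known from plasmacytoid dendritic cells and macrophages. Its only peak, 1155 bp downstream of the start site (chr12:112728250-112728650), had 17.3 and 17.9 CPM in KL and 15.4 and 15.5 CPM in KLG4m/m. The groups did not overlap but were close, and the difference did not pass (log2 fold change -0.19, 95% interval -0.58 to 0.21). Of 6 plasmacytoid dendritic cell markers, *Ccr9*, *Irf8* and *Tcf4* had peaks, none passed by edgeR, limma or DESeq2, also at an unadjusted p under 0.05 (0 of 3), and *Siglech* had no listed peak.

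The lipid phosphatase gene *Plpp1* showed the largest differences in both directions among the member peaks. It encodes an enzyme of the cell surface and inner membranes that removes the phosphate of phosphatidic acid, lysophosphatidic acid and sphingosine 1-phosphate. Its promoter peak (chr13:112937445-112937845, 134 bp downstream of the start site) had 21 and 17.6 CPM in KL and 37.1 and 39.0 CPM in KLG4m/m. The KLG4m/m libraries were well above both KL libraries. The peak rose 1.97-fold, from 19.3 ± 2.43 to 38.1 ± 1.34 CPM (SD, n = 2 each, log2 fold change 0.98 ± 0.16 SE, edgeR adjusted p = 2.21e-04).

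The second *Plpp1* peak lay in intron 1 of 5, 10097 bp downstream of the start site (chr13:112947408-112947808). It had 12.7 and 12.4 CPM in KL and 4.64 and 6.50 CPM in KLG4m/m, from 16 to 44 reads per library. Both KLG4m/m libraries were below both KL libraries. The peak fell to 0.444 of its KL level (log2 fold change -1.17 ± 0.27 SE, edgeR adjusted p = 0.00733). Without KLG4m/m replicate 3 the promoter and intronic peaks stood at log2 fold changes of 1.01 and -0.95, and without replicate 4 at 0.95 and -1.42, and neither passed. In those comparisons 0 of the 35486 peaks of the table passed by edgeR, while 2251 and 2228 were higher and 3235 and 2950 lower at an unadjusted p under 0.05. Both *Plpp1* peaks passed when KL replicate 1 or KL replicate 2 was left out. By DESeq2 the promoter peak passed and the intronic one did not (DESeq2 adjusted p = 0.0181 and 0.247).

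**Figure D2:**
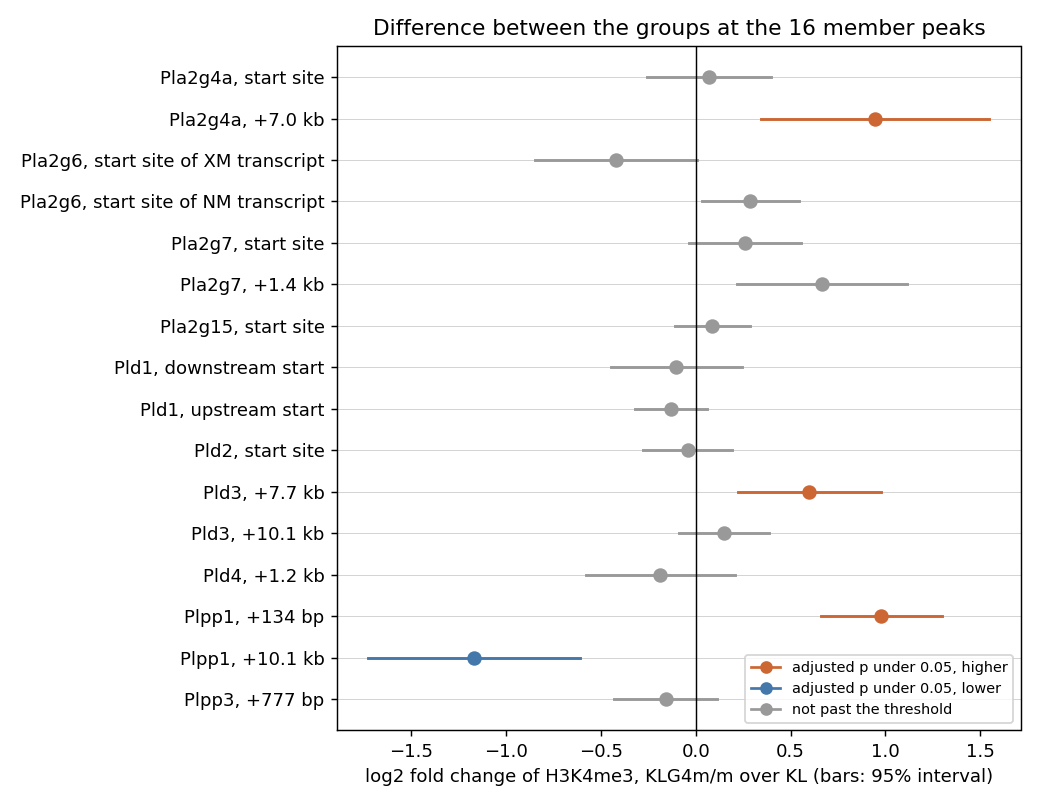
log2 fold change (KLG4m/m over KL) of each member peak with its 95% interval as a bar, in orange where the peak rose, in blue where it fell and in gray otherwise. The *Plpp1* promoter peak (0.98) and its intronic peak (-1.17) lie at opposite ends.

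Summed over both peaks, *Plpp1* had 33.7 and 29.9 CPM in KL and 41.9 and 45.3 CPM in KLG4m/m. It rose 1.37-fold (log2 fold change 0.45, edgeR adjusted p = 0.0167), less than its promoter peak alone because the sum held both directions. The call was lost without KL replicate 2 (log2 fold change 0.38) or either KLG4m/m library (0.51 and 0.39). The closest listed peak of another gene, at *Gm41067* 30.1 kb from the promoter peak, had 7.48 and 4.61 CPM in KL and 4.06 and 5.26 CPM in KLG4m/m, with overlap.

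*Plpp3*, the other lipid phosphatase, had 1 peak, 777 bp downstream of its start site (chr4:105015321-105015721). It had 41.7 and 47.5 CPM in KL and 43.2 and 36.5 CPM in KLG4m/m. The groups overlapped, and no difference was detectable (log2 fold change -0.16, 95% interval -0.43 to 0.11).

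Whether 2 peaks of 1 gene changed differently was tested directly for the 6 genes with 2 peaks, by edgeR's diffSpliceDGE with Benjamini-Hochberg adjustment. Only the intronic *Plpp1* peak differed from its gene (adjusted p = 9.47e-05), beside 1.29% of all peaks of genes with 2 or more peaks. The *Plpp1* promoter peak stood at an adjusted p of 0.0901 in the same test, and the log2 fold changes of both *Plpp1* peaks differed by 2.15. The intronic peak held 37.6% and 41.4% of the *Plpp1* reads in KL and 11.1% and 14.3% in KLG4m/m, without overlap. Of the 7617 genes with 2 or more peaks, 47 (0.617%) had 1 peak that rose and 1 that fell, *Plpp1* among them. The intronic peak also passed when each library was left out in turn (adjusted p from 0.00102 to 0.0487), in fits where 1 group had a single library and the spread came from the other group. A test per gene rather than per peak was chosen after seeing the data. Its diffSpliceDGE adjusted p was 9.66e-07 at *Plpp1*, 0.0571 at *Pla2g6* and 0.0953 at *Pla2g4a*. The share of all genes that passed it was not counted. It used the same reads as the test per peak, so it is not separate support.

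**Figure D3:**
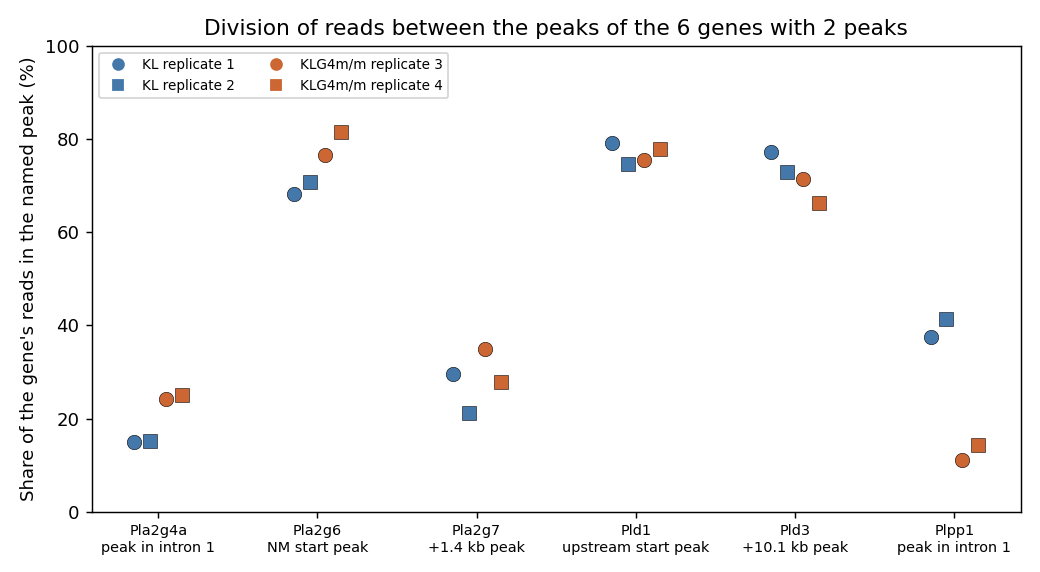
Share (%) of a gene's reads that fell in the named peak, for the 6 genes with 2 peaks, with 1 point per library. At *Plpp1* the share in the intronic peak lay at 37.6% and 41.4% in KL and at 11.1% and 14.3% in KLG4m/m, and at *Pld1* the groups overlap.

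At *Pla2g4a* the intronic peak held 15.04% and 15.15% of the reads in KL and 24.24% and 25% in KLG4m/m. At *Pla2g6* the NM start peak held 68.2% and 70.7% in KL and 76.6% and 81.5% in KLG4m/m. At *Pld3* the farther peak held 77.2% and 72.9% in KL and 71.4% and 66.3% in KLG4m/m. The groups did not overlap at these genes, but the difference between the peaks did not pass the test at any of them. How often such shares do not overlap over all genes with 2 peaks was not counted, so the lack of overlap here and at *Plpp1* has no background beside it. At *Pla2g7* the groups overlapped. At *Pld1* the upstream start held 74.8% to 79.3% of the reads in all 4 libraries, so the division between the 2 start sites was alike within the spread of the KL libraries.

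**Figure D4:**
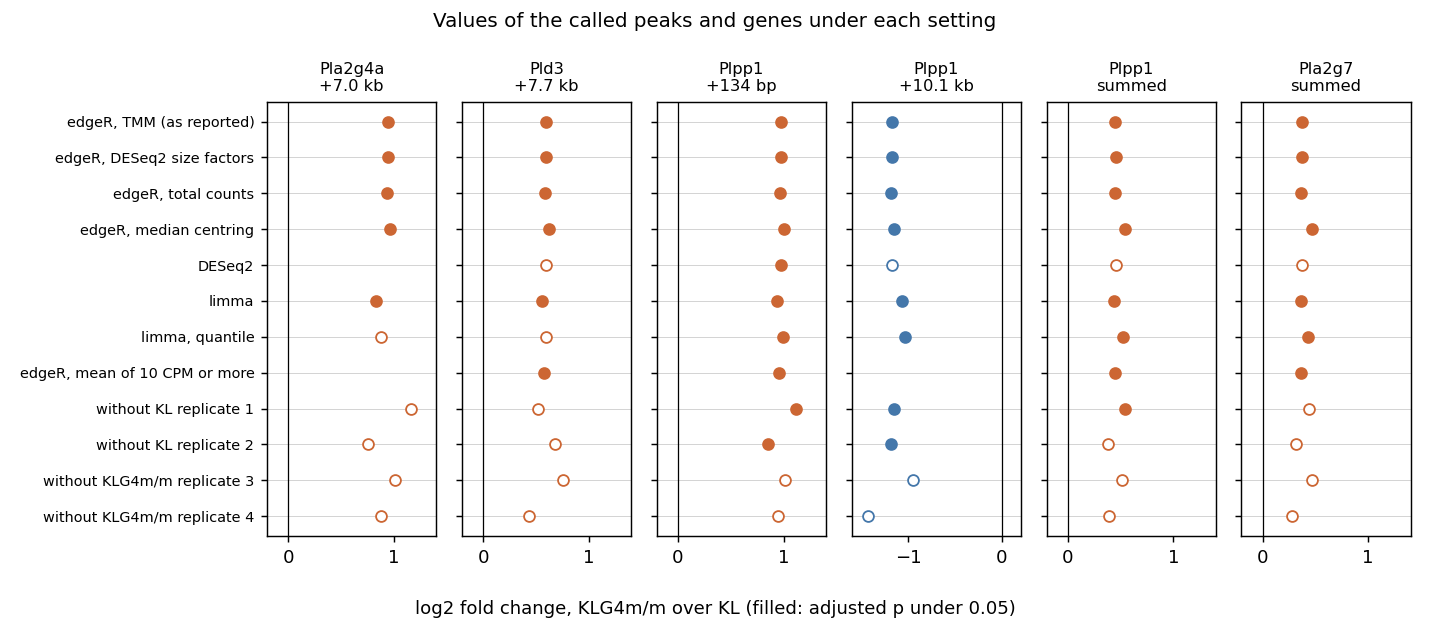
log2 fold change (KLG4m/m over KL) of the called peaks and summed genes under each setting, filled where the adjusted p was under 0.05 and open otherwise, and missing where the setting gave no adjusted p. Directions were the same in every setting shown. All 6 calls were lost without KLG4m/m replicate 3 and without KLG4m/m replicate 4, and some were also lost with DESeq2, with quantile normalization or without a KL library.

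Among other genes of these families and pathways, from lists taken for their function, more passed as lower than as higher. The whole table leaned the same way, with 5.38% of genes higher and 9.63% lower. At an unadjusted p under 0.05 by edgeR, 12.4% of all genes were higher and 16.4% lower. Of 17 other phospholipase A2 and related genes with a peak, which include the receptor gene *Pla2r1*, 0 rose and 2 fell. At an unadjusted p under 0.05, 0 were higher and 5 lower by edgeR and 0 and 2 by DESeq2. The genes that fell were *Pla2g12a*, a secreted enzyme (log2 fold change -0.55), and *Pafah1b1*, a subunit of an intracellular platelet-activating factor hydrolase that also serves dynein (-0.41). Of the 2 other phospholipase D genes and the 8 other lipid phosphate phosphatase genes with a peak, none passed by edgeR, limma or DESeq2, and at an unadjusted p under 0.05 by edgeR 0 of the former and 2 of the latter, 1 in each direction, did.

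Phospholipase C enzymes make diacylglycerol directly from phosphoinositides. Of 12 phospholipase C and phospholipase C-like genes, 1 rose and 4 fell. *Plcb3* fell most (57.1 and 70.0 CPM in KL, 46.2 and 31.8 CPM in KLG4m/m, edgeR adjusted p = 1.48e-05), and *Plcb1* and *Plcd1* fell with log2 fold changes of -0.41 and -0.31. *Plcg2*, known from B cells and other blood cells, rose (log2 fold change 0.24). Lysophospholipases cut what phospholipase A2 leaves. Of 15 genes of these and related enzymes, 0 rose and 3 fell, with 1 higher and 3 lower at an unadjusted p under 0.05. *Lypla1* had 56.2 and 71.4 CPM in KL and 39.2 and 35.8 CPM in KLG4m/m (log2 fold change -0.76, edgeR adjusted p = 1.40e-06), and *Lyplal1* and *Abhd12* fell with log2 fold changes of -0.51 and -0.32.

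Of 6 lysophosphatidic acid receptor genes, *Lpar4* fell (log2 fold change -0.96), on 14 to 31 reads per library, and of 9 diacylglycerol kinase genes, which run the phosphatase step backwards, *Dgkz* rose (log2 fold change 0.28). Beside these counts, 5.38% of all genes were higher and 9.63% lower. By DESeq2, *Lypla1* passed after adjustment (DESeq2 adjusted p = 0.00757), and no other gene of these lists did.

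**Figure D5:**
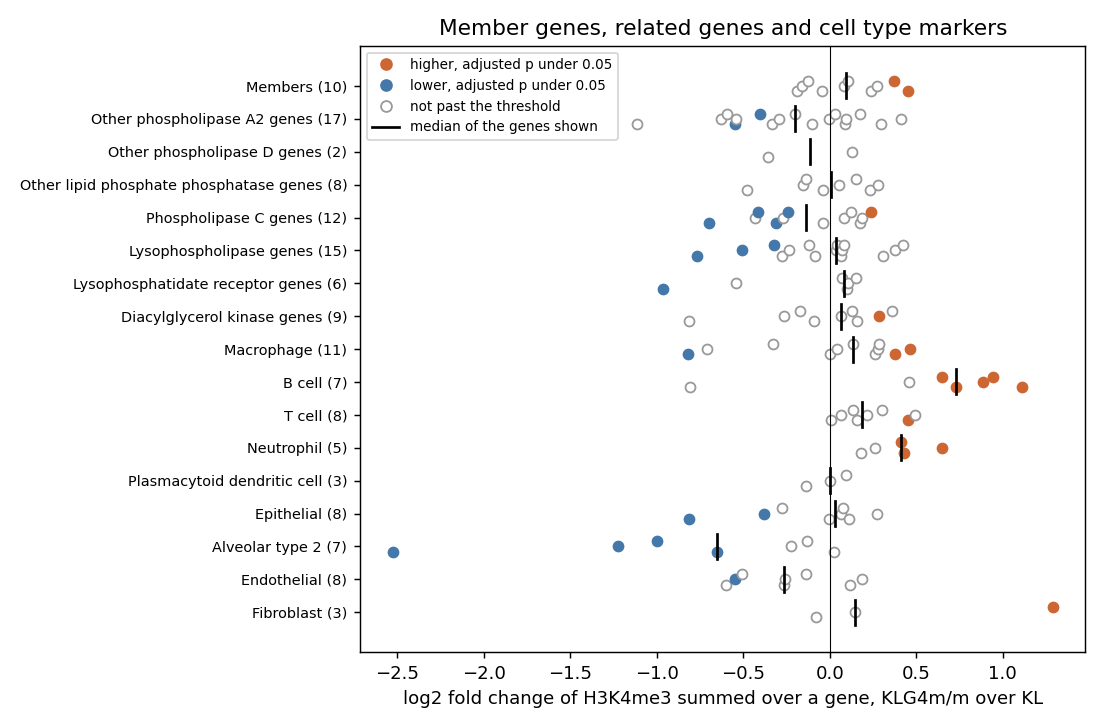
log2 fold change of H3K4me3 summed over each gene (KLG4m/m over KL) for the member genes, the lists of related genes and the cell type markers, with the number of genes with a peak in brackets, 1 point per gene and the median as a line. The median of the members was 0.09, that of the other phospholipase A2 genes -0.20, that of the B cell markers 0.73 and that of the alveolar type 2 markers -0.65.

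Among the other cell type lists by edgeR, 1 of 8 T cell, 3 of 5 neutrophil and 1 of 3 fibroblast genes with a peak rose. In the epithelial and endothelial lists, 2 of 8 and 1 of 8 genes fell. The table as a whole had 5.38% of genes higher and 9.63% lower. Of the genes that rose or fell in these lists, *Epcam* alone passed by DESeq2. *Ptprc*, which encodes the CD45 antigen used to remove leukocytes in the sort, did not pass (log2 fold change 0.22, edgeR adjusted p = 0.163). Its unadjusted edgeR p was 0.0451, and 12.4% of all genes were higher at an unadjusted p under 0.05. The part of these shifts in the differences at the phospholipase and phosphatase genes was not tested.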

How the data were processed

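H3K4me3 CUT&Tag was analysed in 4 libraries, 2 per group, grouped by the titles and genotypes in the labels. The labels' protocol describes cleavage by pAG-MNase. The H3K27ac libraries were not analysed here. Part of the genotype that both groups share is not reported here. The submitters' processing notes name Trim Galore 0.6.10, BWA 0.7.15, Picard 2.17.3, MACS2 2.2.7.1 and HOMER 4.11.1. The authors deposited 1 table of peaks with whole read counts per library, not normalized, and CPM, which rest on the total of reads in listed peaks, so that a change by 1 factor at every peak is not visible. How peaks were merged over libraries is not given in the sources used here. The authors' own comparison (log2 fold change, mean log CPM, F, p and adjusted p) was not used, and 0 columns of per-sample values were left unmapped. The methods name Ensembl 94, while the table's sequence names are those of GRCm39. Positions are given as deposited, and none was converted.

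The deposited counts were compared with edgeR 4.0.16 (quasi-likelihood, TMM, no covariate, no filter, two-sided, threshold 0.05 on the Benjamini-Hochberg adjusted p) in R 4.3.3 over all peaks, and over all genes with counts summed. Intervals are 95% from the same fit. Counting error alone is large for peaks of few reads. Peaks of 1 gene were compared with diffSpliceDGE. Alternatives used limma 3.58.1 on log2(CPM + 1), DESeq2 1.42.0, other scalings, filters and left-out libraries. The scripts were tested on simulated data. An exact permutation test of 1 value cannot reach the threshold with 2 libraries a group. Named genes were all members, of the related lists at most the 3 largest changes per list and direction past the threshold, the neighbours of called peaks, markers of cell types that a member marks and *Gpx4*. Genes outside this rule, such as *Sftpc*, *Epcam* and *Ptprc*, were named with the sort and the tissue in view. The members and lists were chosen with earlier results of these data known.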

Additional observations from a re-analysis of the deposited data

How the results depend on the processing

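The number of member peaks that rose (3) became 1 with DESeq2, which gave the intronic *Pla2g4a* peak no adjusted p, and 1 with quantile normalization. The number that fell (1) became 0 with DESeq2 and 0 among peaks of at least 10 CPM, where the intronic *Plpp1* peak was not tested. The number of genes that rose (2) became 0 with DESeq2, 0 with an added 1.5-fold change, 1 with peaks within 1 kb only and 1 with the highest peak only. The within-gene count (1) became 2 with limma and 0 among peaks of at least 10 CPM. Leaving out 1 library gave 0 to 2 peaks higher, 0 to 1 lower, 0 to 1 genes higher, 0 genes lower and 1 within-gene peak. Without KLG4m/m replicate 3 or 4, 0 of 35486 peaks passed (unadjusted p under 0.05: 2251 higher and 3235 lower, or 2228 and 2950). Over all peaks, the counts of 1099 higher and 1960 lower became 33 and 250 with DESeq2, 486 and 866 with quantile normalization and 484 and 998 without KL replicate 2. Over all genes, 1122 and 2010 became 122 and 337 with DESeq2, 378 and 990 with the added 1.5-fold change, 649 and 1305 without KL replicate 1 and 492 and 941 without KL replicate 2. The cause was not tested.

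Direction turned only in results that did not pass: *Pld2* summed, 0.0478 with median centring, and with 1 library left out *Pld2* (peak -0.16 to 0.0896, summed -0.16 to 0.0944), *Pla2g15* (peak -0.0256 to 0.21, summed -0.0208 to 0.21), the *Pla2g4a* start peak (-0.13 to 0.30), the downstream *Pld1* peak (-0.30 to 0.12) and the difference of each *Pld1* peak from its gene (-0.14 to 0.23 and -0.23 to 0.14). No paired analysis was possible because the KL libraries are numbered 1 and 2 and the KLG4m/m libraries 3 and 4, so no number is shared. Weak peaks rest on few reads, and with 2 libraries per group calls rest on the spread that edgeR shares between peaks.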
